A study of Mus musculus with 12 samples.

Results

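Aminoacyl-tRNA synthetases attach each amino acid to its tRNA, and their 37 genes were followed across 4 treatments of MC38-idAdpgkG cells. The genes were chosen by symbol, as the 1-letter code of an amino acid followed by "ars" with or without a number, plus Eprs, Farsa, Farsb and Fars2. They make up 37 of the 27179 gene IDs counted. Of the 37, 20 encode cytosolic enzymes and 17 encode mitochondrial enzymes, with Gars and Kars, whose products serve both compartments, counted as cytosolic. The choice used no measured value, and all 37 passed the filter on low counts that left 12910 genes for testing.

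The cells derive from MC38, a mouse colon carcinoma line from the C57BL/6 strain. They carry a stably transfected construct, inducible with doxycycline, for a mutated Adpgk (ADP-dependent glucokinase, a model neoantigen) fused to turboGFP, whose protein can be degraded with the small molecule dTAG-13. Every group, controls included, received 20 ng/mL mouse IFNg (interferon-gamma) for 51 h. Control cells had IFNg alone, and doxycycline cells had IFNg with 1 µg/mL doxycycline for 51 h. The dTAG-13 cells had IFNg for 48 h and then 1 µM dTAG-13 as well for the last 3 h. The doxycycline plus dTAG-13 cells had IFNg and doxycycline for 48 h and then 1 µM dTAG-13 as well for the last 3 h. Each group was 1 biological sample of this engineered line with 3 technical replicate libraries, so the errors and p-values here measure the spread between libraries of 1 culture, and a difference between treatments cannot be told apart from a difference between cultures.

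Each synthetase recognises 1 amino acid and the tRNAs that carry it, and the charged tRNA is then brought to the ribosome by elongation factors. The cytosol and the mitochondrial matrix run separate translation systems, and most amino acids therefore have a cytosolic enzyme and a mitochondrial enzyme encoded by different nuclear genes. Part of the cytosolic enzymes sit in the multi-synthetase complex, held together by the scaffold proteins encoded by Aimp1, Aimp2 and Eef1e1. Transcription of many cytosolic synthetase genes is a textbook target of ATF4, the transcription factor of the amino-acid response.

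The 12 poly(A) RNA libraries held 22165538 to 32809573 counts. Adpgk rose from 158 to 162 CPM (the normalised read count, relative to the library size after TMM scaling) in control libraries to 1320 to 1350 CPM with doxycycline, and lay between 1350 and 1380 CPM with both compounds and between 177 and 185 CPM with dTAG-13 alone. The third libraries of the control, doxycycline and doxycycline plus dTAG-13 groups stood apart from the other 2 of their group. The chi-square per degree of freedom between libraries was 4.685 and 4.486 for the third control library against 2.467 between the other 2, 5.746 and 5.057 against 2.429 with doxycycline, and 8.459 and 8.817 against 2.755 with both compounds. With dTAG-13 it ran from 3.081 to 3.341. Without the third library of every group the synthetases called higher and lower, of 37, were 1 and 13 for doxycycline against control (1 and 16 with all libraries), 6 and 20 for dTAG-13 against control (8 and 21), 10 and 16 for both compounds against doxycycline (9 and 16), 3 and 3 for both against dTAG-13 (2 and 4) and 11 and 0 for the interaction (9 and 0). Of 8 colon epithelium markers, 0 reached 1 CPM in any library, and Epcam and Cdx2 had no read. Of 10 markers of leukocytes, endothelium and fibroblasts, 3 reached 1 CPM (Col3a1, Pdgfra and Pecam1), and the 10 summed ran from 988 to 1030 CPM in control, 1270 to 1310 CPM with doxycycline, 897 to 921 CPM with dTAG-13 and 1020 to 1050 CPM with both. The leukocyte markers Ptprc, Cd3e, Itgam and Adgre1 stayed under 0.1 CPM in every library. Their part in the results below was not tested.

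Cytosolic synthetases were far more abundant than their mitochondrial counterparts. Levels between genes are compared as CPM per kilobase of transcript. In control cells the highest level was that of Nars, the asparagine enzyme, at 536.7 CPM per kilobase, followed by Tars (threonine) at 359.0, Gars (glycine) at 342.4 and Rars (arginine) at 298.4 CPM per kilobase. The lowest cytosolic level was that of Dars (aspartate), at 51.24 CPM per kilobase. The highest mitochondrial level was that of Lars2 (leucine), at 71.46 CPM per kilobase, and it was the 1 mitochondrial gene above any cytosolic one. The next were Iars2 (isoleucine) at 36.5 and Rars2 (arginine) at 34.05 CPM per kilobase, and the lowest were Wars2 (tryptophan) at 3.828 and Pars2 (proline) at 3.27 CPM per kilobase. In the 18 pairs of a mitochondrial enzyme and a cytosolic enzyme or subunit for the same amino acid, the cytosolic level was the higher in all 18. Eprs, which charges both glutamate and proline, was paired with Ears2 and with Pars2, and both subunits of the phenylalanine enzyme, Farsa and Farsb, were paired with Fars2. The cytosolic to mitochondrial ratio had a median of 13.2 and ran from 1.92 for leucine to 117 for asparagine.

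**Figure D1:**
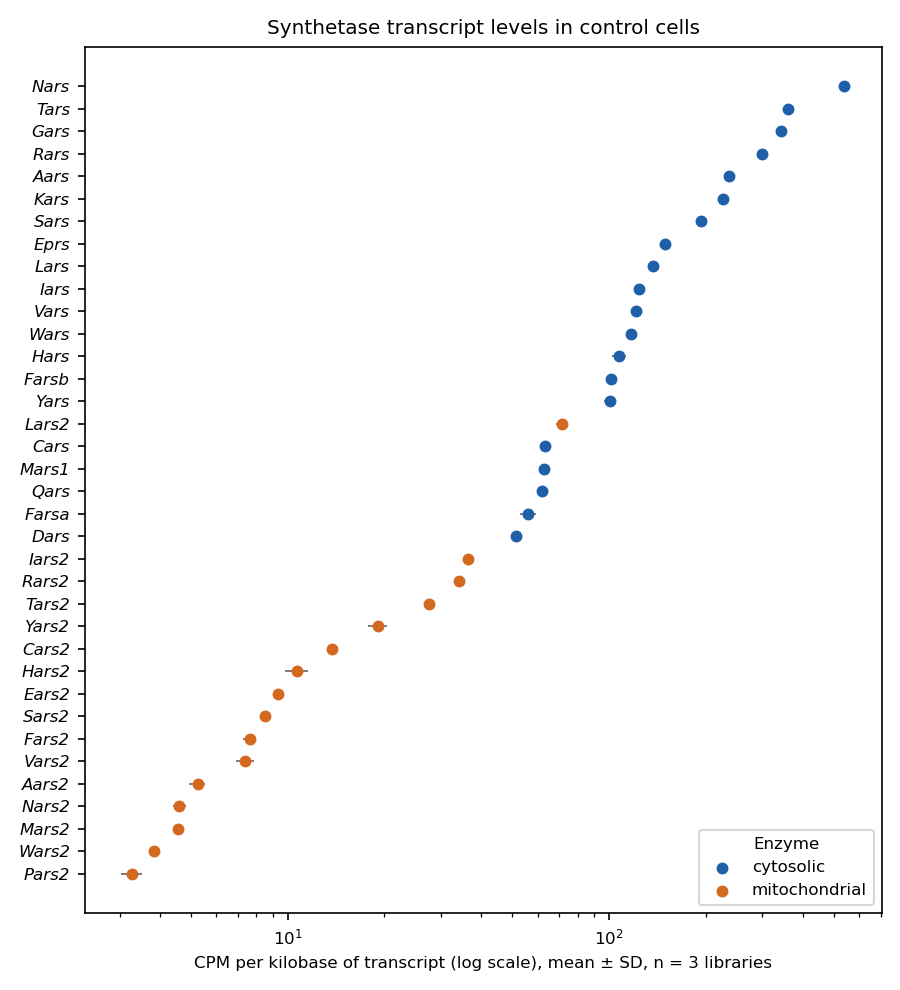
Levels of synthetase transcripts in control cells (1 of the 37 not drawn), as CPM per kilobase of transcript on a log scale (points are means, bars ± SD, n = 3 libraries). Cytosolic genes occupy the upper part, from 51.24 (Dars) to 536.7 (Nars), and among mitochondrial genes Lars2 (71.46) alone reaches that range.

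The promoters of the cytosolic genes are shown because many of those genes moved together in the comparisons below. RefSeq promoters of GRCm38.p6, 250 bases before to 50 after the start, were matched for 27 synthetases, 13 cytosolic and 14 mitochondrial. Cars, Hars, Hars2, Lars, Nars, Pars2, Rars, Vars and Wars were among those with no entry. The amino-acid response element, the motif that ATF4 binds with a partner, was searched on both strands as TGATGNAA. A gene was counted when any of its promoters held a match. The element was present for 5 of the 13 cytosolic genes (38.5%: Aars, Gars, Iars, Tars and Yars) and for 0 of the 14 mitochondrial ones. In Aars, Gars and Tars a match lay before the start, and in Iars and Yars the matches lay across or after it. It was present for 4.51% of all 27025 genes with a promoter and for 2.73% of the 9754 tested genes with one. The E-box CACGTG, to which Myc binds with its partner, was present for 4 of 13 cytosolic genes (30.8%: Aars, Farsb, Iars and Tars) and 1 of 14 mitochondrial ones (Ears2). In Tars and Ears2 the E-box lay across or after the start. The shares were 8.09% of all genes with a promoter and 11.6% of the tested ones. The core of the motif of nuclear respiratory factor 1, CGCATGCG, was present for 0 cytosolic and 2 mitochondrial genes (14.3%: Vars2 and Wars2). For this motif the shares were 2.07% of all genes with a promoter and 4.45% of the tested ones. The matches of the different motifs in the Aars promoter did not overlap. A match is a description of letters and not a site shown to be bound. The stretches below run up to the base before the start or to 25 bases past the match, on the strand of the gene, with the match in capitals. In the first 3 the match reads TGATGNAA on the opposite strand, and in Wars2 the capitals are CGCATGCG. The positions are chr8:111033705-111033762 (plus strand, 112 bases before the start) for Aars, chr6:55037946-55038000 (plus strand, 30 before) for Gars, chr15:11399659-11399698 (minus strand, 15 before) for Tars and chr3:99141002-99141059 (plus strand, 63 before) for Wars2.
Aars: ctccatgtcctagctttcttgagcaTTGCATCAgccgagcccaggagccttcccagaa
Gars: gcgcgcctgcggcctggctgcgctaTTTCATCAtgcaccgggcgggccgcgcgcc
Tars: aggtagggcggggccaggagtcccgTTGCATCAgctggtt
Wars2: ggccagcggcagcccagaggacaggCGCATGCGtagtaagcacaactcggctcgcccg

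Treatment with dTAG-13 alone was compared with control to ask what the degrader did to synthetase transcripts while the transgene was off. Cytosolic synthetases fell and mitochondrial ones went both ways. Of the 20 cytosolic genes, 17 fell and 1 rose, and of the 17 mitochondrial genes, 4 fell and 7 rose (edgeR quasi-likelihood test, Benjamini-Hochberg adjusted p under 0.05). Over all tested genes, 32.1% were called lower and 30.0% higher. The median log2 fold change was -0.22 for cytosolic synthetases, 0.091 for mitochondrial synthetases and 0.019 for all genes. With scaling by library size only, which moved the median of all genes to 0.11, the counts were 15 lower and 3 higher for cytosolic and 1 lower and 11 higher for mitochondrial genes. None of these changes was large, since the number of called synthetases with a 2-fold change in any comparison was 0.

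The deepest falls were in the isoleucine, glutamate-proline, valine and alanine enzymes of the cytosol. Iars (isoleucine, chr13:49682130-49734267) had 541.2, 540.4 and 548.3 CPM in the control libraries and 367.5, 369.4 and 368.0 CPM with dTAG-13. The groups did not overlap, and the log2 fold change was -0.56 (SE 0.0235, adjusted p 3.94e-23). Eprs (chr1:185361417-185428360), a member of the multi-synthetase complex as Iars is, had 715.8, 745.8 and 732.1 CPM in control and 505.3, 491.4 and 501.0 CPM with dTAG-13. It fell by 0.55 on the log2 scale (SE 0.0206, adjusted p 9.08e-25), with no overlap. Vars (valine, chr17:35000907-35016329) had 503.2, 499.8 and 503.6 CPM in control and 352.6, 348.9 and 354.5 CPM with dTAG-13. Its log2 fold change was -0.51 (SE 0.0213, adjusted p 2.82e-23), and again every treated library lay below every control library. Aars (alanine, chr8:111027778-111055569) went from 860.9, 867.6 and 854.8 CPM to 652.1, 643.6 and 646.4 CPM. Its log2 fold change was -0.41 (SE 0.0188, adjusted p 7.09e-22), with no overlap. The other 13 cytosolic genes that fell had log2 fold changes between -0.38 (Lars, leucine) and -0.11 (Farsa, a subunit of the phenylalanine enzyme). For each of the 17 that fell every dTAG-13 library lay below every control library. Overlap was not counted over all tested genes, so its absence is not read as particular to synthetases.

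The fall reached both parts of the cytosolic set. All 12 cytosolic genes whose enzymes work outside the multi-synthetase complex were called lower, with log2 fold changes from -0.51 (Vars) to -0.11 (Farsa), and 0 of them were higher (also 0 at an unadjusted p under 0.05 and 0 by DESeq2). Corrected for length and GC content, Cars (-0.044, adjusted p 0.153) and Sars (-0.023, adjusted p 0.332) were not called. With scaling by library size only, Cars and Farsa were not called. Of the 8 complex enzymes 5 fell (Iars, Eprs, Lars, Qars and Kars) and 1 rose. The riser was Dars, the aspartate enzyme, with 111.7, 114.5 and 108.1 CPM in control and 140.5, 140.5 and 136.1 CPM with dTAG-13. Its log2 fold change was 0.32 (SE 0.0293, adjusted p 1.7e-12), with no overlap, but corrected for GC content and transcript length it was 0.029 and not called. Among the 8, those that did not pass the test were Rars, with a log2 change of 0.008 (adjusted p 0.749), and Mars1 (methionine), with 0.030 (adjusted p 0.337). With the same correction they were -0.16 and 0.093, both called. Both structural classes of synthetases held genes of either direction: of 18 class I genes 9 fell and 4 rose, and of 18 class II genes 11 fell and 4 rose, with Eprs, which joins an enzyme of each class, left out of both.

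Among mitochondrial enzymes the alanine gene fell furthest and the asparagine and histidine genes rose most. Aars2 (chr17:45503515-45520843) had 18.7, 17.29 and 16.72 CPM in control and 12.76, 12.84 and 12.67 CPM with dTAG-13. The groups did not overlap, and the log2 fold change was -0.46 (SE 0.0676, adjusted p 1.36e-07). Nars2 (chr7:96950839-97064758), for asparagine, rose from 16.44, 17.97 and 17.78 CPM to 22.85, 23.33 and 22.45 CPM. That is a log2 change of 0.40 (SE 0.064, adjusted p 9.84e-07), with every treated library above every control library. Hars2, for histidine, had 35.74, 34.65 and 30.52 CPM in control and 42.48, 41.99 and 41.43 CPM with dTAG-13. Its log2 fold change was 0.32 (SE 0.0541, adjusted p 3.91e-06), without overlap. Sars2, for serine, fell from 16.5, 15.75 and 15.47 CPM to 12.88, 13.84 and 13.88 CPM, a log2 change of -0.23 (SE 0.0692, adjusted p 0.00336). The Sars2 libraries did not overlap either, but with scaling by library size only the change was -0.14 and not called (adjusted p 0.0686). The other called mitochondrial genes were Pars2 (0.23), Rars2 (0.23), Cars2 (0.22), Mars2 (0.18) and Yars2 (0.17), which were higher, and Vars2 (-0.20) and Iars2 (-0.086), which were lower. The count of 7 mitochondrial genes called higher became 4 without the third dTAG-13 library. For Iars2 the sign turned with library size only (0.006, not called).

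Adding dTAG-13 to doxycycline-treated cells asked the same question with the transgene on, in libraries that the first comparison did not use. The cytosolic genes were again mostly lower. Of the 20 cytosolic genes, 13 fell and 2 rose (Dars and Mars1), and of the 17 mitochondrial genes, 3 fell and 7 rose. Over all tested genes 33.4% were called lower and 30.7% higher. The medians were -0.15 for cytosolic, 0.12 for mitochondrial and 0.0032 for all tested genes. Of the 37 genes 16 were called lower in both dTAG-13 comparisons, 7 were called higher in both and 0 were called in opposite directions, and the log2 fold change had the same sign in 33. The shares of all tested genes called alike in both were not counted, so this accord is not read as particular to synthetases. Besides the genes given next, Lars (-0.32), Farsb (-0.25), Qars (-0.20) and Yars (-0.19) were among the cytosolic genes called lower. Dars was 0.28 and Mars1 0.18, and Dars was 0.003 and not called when corrected for length and GC content. Kars (0.012), Sars (-0.008), Hars (-0.044) and Farsa (-0.033), all called lower without doxycycline, were not called here.

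The members at both ends were largely those named above. Iars had 495.4, 501.8 and 480.3 CPM with doxycycline and 338.7, 364.4 and 344.4 CPM with both compounds, a log2 change of -0.50 (SE 0.0237, adjusted p 3.56e-21). Eprs went from 701.8, 713.9 and 698.7 CPM to 495.0, 502.1 and 493.6 CPM, which is -0.50 on the log2 scale (SE 0.0207, adjusted p 2.92e-23). In neither gene did the groups overlap. Vars had 487.1, 493.7 and 502.2 CPM with doxycycline and 370.7, 377.8 and 367.8 CPM with both, a log2 change of -0.41 (SE 0.0213, adjusted p 5.28e-20). Aars went from 786.9, 777.3 and 788.0 CPM to 622.6, 628.4 and 625.1 CPM, a log2 change of -0.33 (SE 0.0189, adjusted p 1.58e-18). Again all libraries with both compounds lay below all libraries with doxycycline alone.

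Nars2 rose from 18.19, 18.07 and 17.05 CPM with doxycycline to 23.71, 22.04 and 26.46 CPM with both, a log2 change of 0.44 (SE 0.0646, adjusted p 1.22e-07). Hars2 rose from 34.83, 31.77 and 34.24 CPM to 42.79, 41.85 and 48.03 CPM, a log2 change of 0.40 (SE 0.0547, adjusted p 5.96e-08). In both the third library with both compounds was the highest of its group, and the groups did not overlap. Yars2, the mitochondrial tyrosine enzyme, rose from 26.35, 26.61 and 26.86 CPM to 35.79, 31.83 and 34.98 CPM, a log2 change of 0.36 (SE 0.0549, adjusted p 2.64e-07). Aars2 fell from 18.39, 17.17 and 16.95 CPM to 13.6, 13.63 and 13.44 CPM, a log2 change of -0.37 (SE 0.0687, adjusted p 1.03e-05). Neither of these overlapped between groups. As without doxycycline, Aars2 was the mitochondrial gene with the deepest fall.

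**Figure D2:**
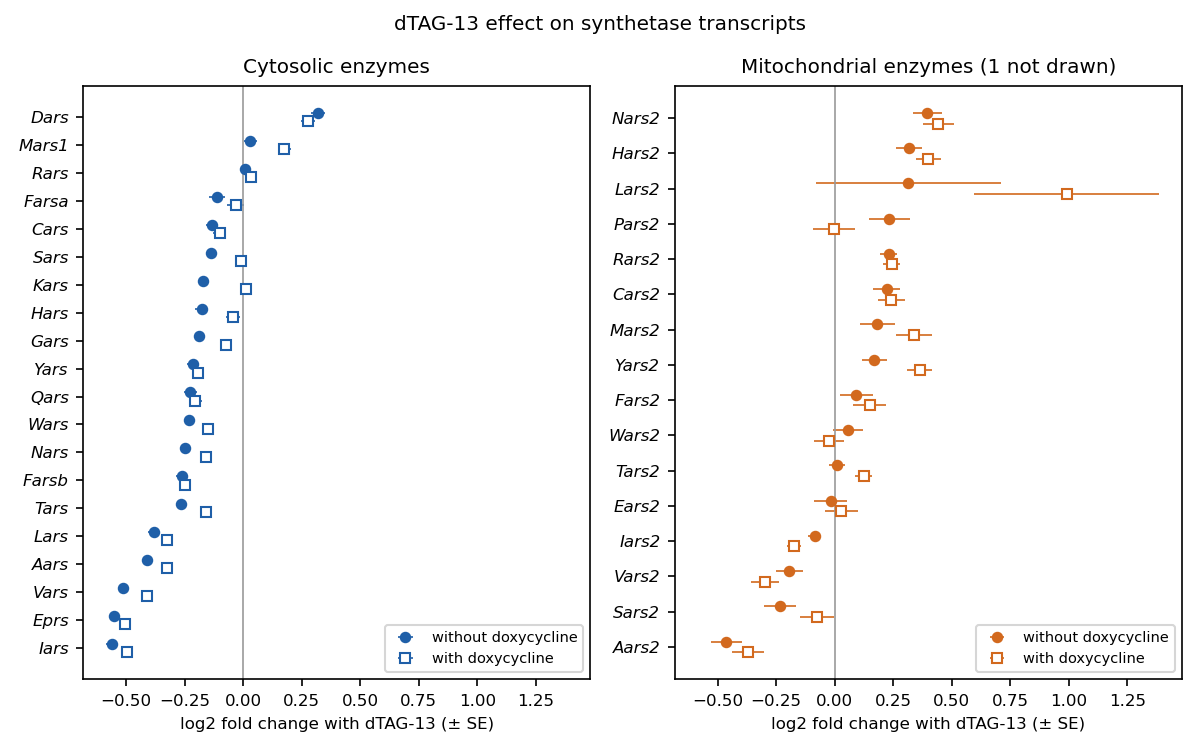
Log2 fold change with dTAG-13 for cytosolic (left) and mitochondrial (right) synthetases (1 mitochondrial gene not drawn), without doxycycline (filled circles) and with it (open squares), with bars of ± 1 SE. In both comparisons cytosolic points lie mostly left of 0, down to -0.56 (Iars), while mitochondrial points spread from -0.46 (Aars2) to 0.99 (Lars2 with doxycycline, not called).

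Set side by side by amino acid, the mitochondrial enzyme had the more positive dTAG-13 log2 fold change in 15 of 18 pairs, with and without doxycycline. The difference between the members of a pair had a median of 0.34 without and 0.30 with doxycycline. Alanine and serine were among the exceptions in both. For alanine both enzymes fell, and the mitochondrial minus cytosolic difference was -0.052 without and -0.044 with doxycycline. For serine it was -0.096 without and -0.068 with doxycycline. The widest difference, 0.78, was that of Pars2 over Eprs for proline, followed by Lars2 over Lars at 0.69 and Nars2 over Nars at 0.64, all without doxycycline. After the correction for length and GC content the count was 15 of 18 in both comparisons, with medians of 0.33 and 0.22, but not for the same pairs. The methionine pair, Mars2 and Mars1, turned from 0.15 to -0.19 without doxycycline and from 0.16 to -0.14 with it, while 1 of the exceptions came to lie above 0. Without the third library of every group it was also 15 in both, with medians of 0.28 and 0.29.

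Summed over the 20 cytosolic genes, the level was 9920 ± 64.7 CPM in control (SD, n = 3), 9203 ± 37.3 CPM with doxycycline, 8269 ± 42.1 CPM with dTAG-13 and 8150 ± 23.5 CPM with both. The 16 mitochondrial genes other than Lars2 summed to 571.6 ± 3.67 CPM in control, 568.5 ± 6.87 CPM with doxycycline, 592.5 ± 10.0 CPM with dTAG-13 and 594.1 ± 4.12 CPM with both. Lars2 is left out of that sum because of the spread of its libraries, described below. In bulk RNA a change in the share of such transcripts in a cell and a change in the mix of cells cannot be told apart.

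**Figure D3:**
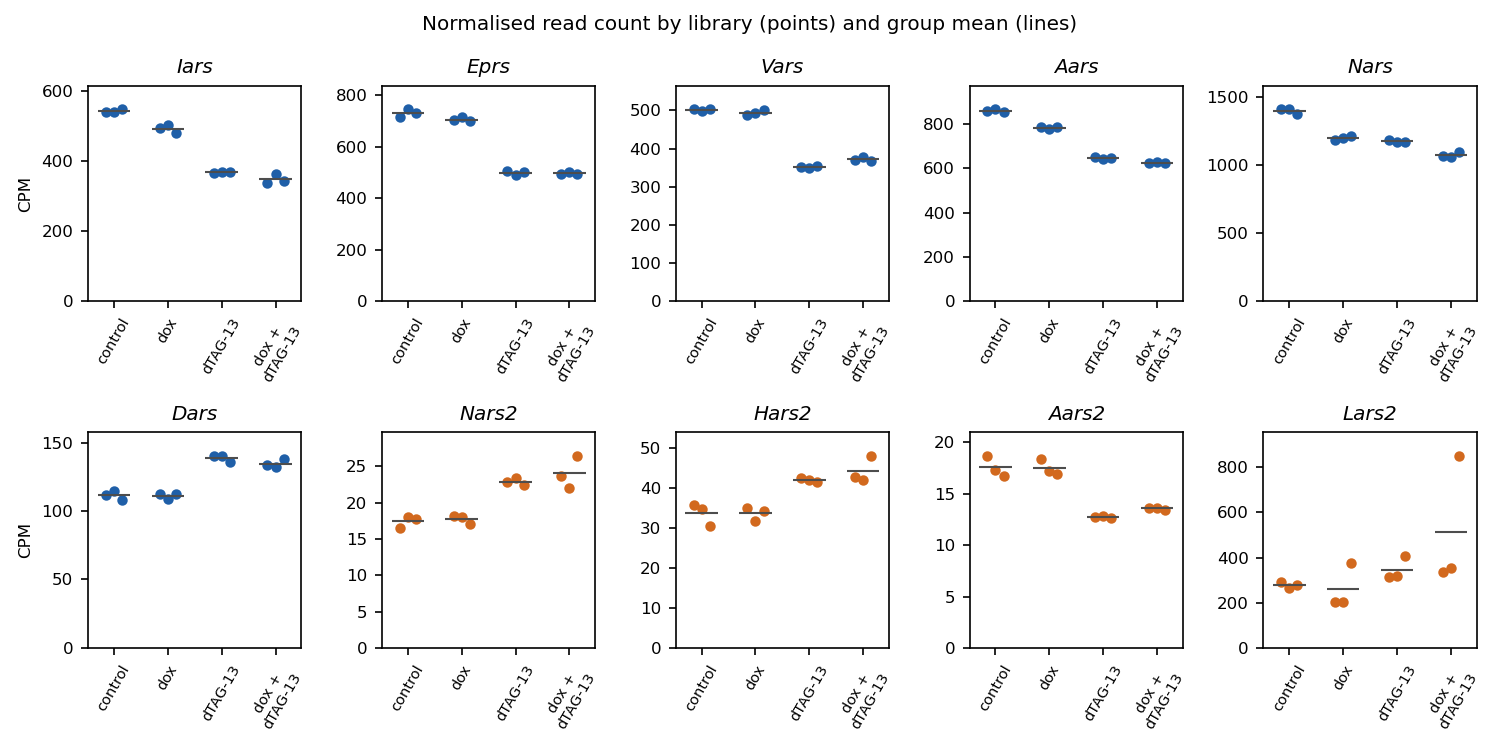
Normalised read count (CPM, linear axes from 0) of 10 synthetases in each of the 12 libraries, with group means as lines. Iars, Eprs, Vars and Aars are low in both groups with dTAG-13, Nars is also lower with doxycycline alone, Dars, Nars2 and Hars2 are high with dTAG-13, and the third doxycycline plus dTAG-13 library of Lars2 stands at 850.9 CPM.

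The dTAG-13 effect moved with transcript length across the transcriptome. Across 11744 tested genes with a known length, Spearman's rho between length and log2 fold change was -0.46 without and -0.61 with doxycycline, given as a description since genes share their libraries. Among the 20 cytosolic synthetases it was -0.62 and -0.61, and among the 17 mitochondrial ones -0.065 and -0.22. Iars, Vars and Eprs, with 4396, 4137 and 4906 bases, are the longest cytosolic transcripts. The medians were 2618 bases for cytosolic, 3142 for mitochondrial and 2921 for all tested genes.

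After the correction for length and GC content, rho over all tested genes was -0.020 and -0.039. For dTAG-13 against control 16 cytosolic genes were then lower and 1 (Mars1) higher, and 3 mitochondrial genes were lower and 4 higher. All shares of tested genes called that are given in this text come from the fit without the correction, so the corrected counts have no such share beside them. Of the 29 synthetases called without the correction 22 were still called, all in the same direction. Those no longer called were Cars, Sars and Dars of the cytosolic genes and Mars2, Rars2, Yars2 and Vars2 of the mitochondrial ones. Iars became -0.43 and Eprs -0.40, Vars became -0.25, Aars -0.24 and Aars2 -0.28. Nars2 and Hars2 stayed at 0.37 and 0.30. With doxycycline the corrected counts were 16 lower and 2 higher for cytosolic and 2 lower and 6 higher for mitochondrial genes, and Vars became -0.10, Aars -0.14 and Aars2 -0.17.

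**Figure D4:**
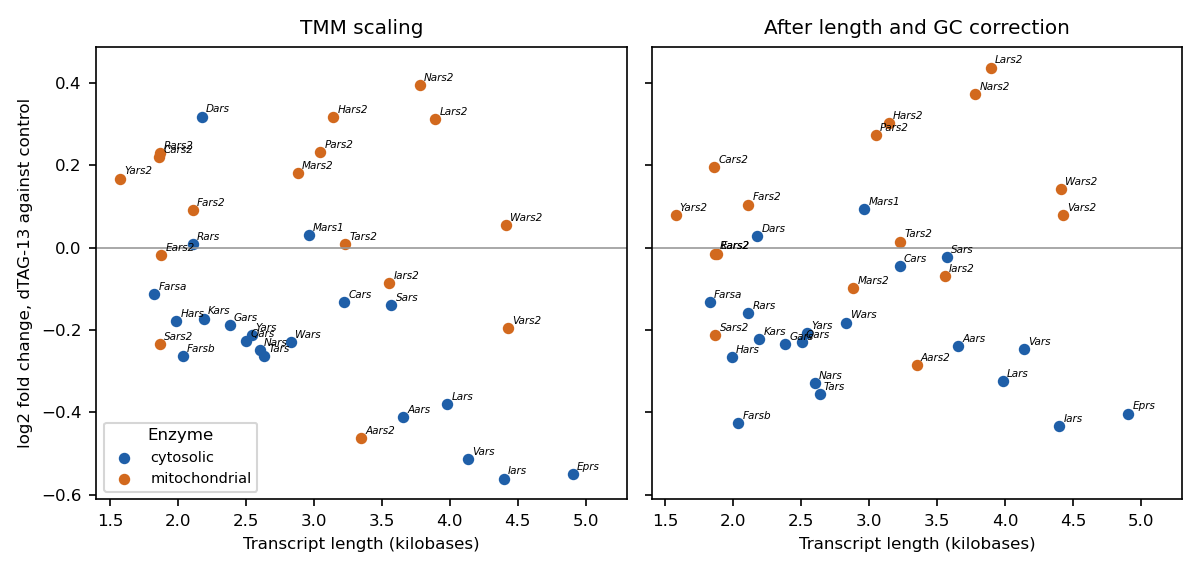
Log2 fold change of dTAG-13 against control for the synthetases (1 mitochondrial gene not drawn) against transcript length in kilobases, as fitted (left) and after the correction for length and GC content (right). The longest cytosolic transcripts have the lowest values on the left, down to -0.56, and on the right most cytosolic genes still lie below 0 while Dars moves from 0.32 to 0.029.

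Doxycycline against control compared cells with the transgene switched on with cells in which it was off. No group had doxycycline without the construct, so an effect of the transgene and an effect of the drug itself cannot be told apart. The cytosolic synthetases were again lower, by small amounts. Of the 20 cytosolic genes 13 fell and 0 rose (0 also at an unadjusted p under 0.05 and 0 by DESeq2), and of the 17 mitochondrial genes 3 fell and 1 rose (edgeR). Over all tested genes 18.7% were called lower and 14.8% higher. The median log2 fold change was -0.084 for cytosolic, -0.0065 for mitochondrial and -0.0104 for all tested genes. With library size only, 8 cytosolic genes were lower and 0 higher, and 2 mitochondrial genes were lower and 2 higher. Over all 37 genes the count called lower was 16, and it was 10 without the first or without the second doxycycline library.

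The asparagine and threonine enzymes led. Nars had 1409, 1407 and 1371 CPM in control and 1183, 1196 and 1210 CPM with doxycycline, and it fell by 0.22 on the log2 scale (SE 0.0187, adjusted p 1.12e-12). Tars went from 939.9, 944.9 and 954.4 CPM to 826.4, 831.8 and 831.1 CPM, a log2 change of -0.19 (SE 0.0184, adjusted p 5.27e-11). Neither pair of groups overlapped. Hars (histidine) had 220.1, 219.5 and 202.0 CPM in control and 185.4, 185.2 and 193.0 CPM with doxycycline, a log2 change of -0.19 (SE 0.0281, adjusted p 1e-06). Mars1 went from 190.1, 188.2 and 179.6 CPM to 169.6, 162.3 and 171.7 CPM, a log2 change of -0.15 (SE 0.027, adjusted p 2.83e-05). These groups did not overlap either, although the third Hars control library lay near the doxycycline range. The other called cytosolic genes lay between -0.14 (Lars and Iars) and -0.053 (Eprs), and Farsa was the 1 called gene of the cytosolic set whose groups overlapped. Here too overlap was not counted over all tested genes. Of the 8 complex enzymes 5 fell, and of the 12 outside it 8 fell. Vars (-0.023) and Rars (0.005) were among the 7 cytosolic genes not called.

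The mitochondrial calls with doxycycline were weaker. Mars2, for methionine, had 13.49, 12.56 and 13.41 CPM in control and 11.56, 10.87 and 11.15 CPM with doxycycline, a log2 change of -0.23 (SE 0.0776, adjusted p 0.0176). Yars2 had 28.93, 32.4 and 28.78 CPM in control and 26.35, 26.61 and 26.86 CPM with doxycycline, which gave -0.18 (SE 0.0548, adjusted p 0.0109). Rars2 had 63.6, 61.54 and 65.69 CPM in control and 60.6, 59.08 and 58.51 CPM with doxycycline, which gave -0.098 (SE 0.0374, adjusted p 0.0394). Each was lower in all doxycycline libraries than in all control libraries, but by little. Iars2 rose, from 129.3, 127.0 and 132.9 CPM to 136.5, 138.8 and 137.2 CPM, a log2 change of 0.085 (SE 0.0282, adjusted p 0.0175). Its exons overlap those of Rab3gap2 on the opposite strand over 22.9% of their length, and the strand setting of the counting is not given in the sources used here. The call of Mars2 was lost without the first control library (adjusted p 0.0605), the second doxycycline library (0.0887) or the third library of every group (0.0691), that of Yars2 without the second control library (0.192) or the first doxycycline library (0.0585), and that of Iars2 without the first (0.0626) or second (0.0598) control library or the third doxycycline library (0.0557). For Rars2 the call was lost in 12 of 21 alternative settings.

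Among cells that all had dTAG-13, few synthetases differed with doxycycline. Of the 20 cytosolic genes 4 fell and 2 rose, and of the 17 mitochondrial genes 0 were called (1 was higher and 1 lower at an unadjusted p under 0.05, and 0 were called by DESeq2). Over all tested genes 9.64% were called lower and 10.7% higher. With library size only, 9 cytosolic genes were lower and 1 higher and 1 mitochondrial gene was lower, and with relative log expression size factors 4 cytosolic genes were lower and 4 higher. Nars had 1186, 1168 and 1171 CPM with dTAG-13 and 1064, 1057 and 1097 CPM with both, a log2 change of -0.13 (SE 0.0188, adjusted p 8.59e-07). Tars had 794.2, 783.2 and 787.2 CPM with dTAG-13 and 745.2, 745.2 and 742.3 CPM with both, a log2 change of -0.083 (SE 0.0184, adjusted p 0.000869). These are the cytosolic genes with the lowest values in the doxycycline comparison without dTAG-13, and here too the groups did not overlap. Lars, the cytosolic leucine enzyme, had 414.7, 424.3 and 420.1 CPM with dTAG-13 and 398.6, 380.0 and 408.7 CPM with both, a log2 change of -0.084 (SE 0.0252, adjusted p 0.0137). Kars (lysine, chr8:111993439-112011354) rose from 450.1, 428.2 and 439.7 CPM to 473.2, 483.5 and 475.6 CPM, a log2 change of 0.12 (SE 0.022, adjusted p 6.25e-05). Neither gene overlapped between groups. The call of Lars was lost without the second library with both compounds (-0.056, adjusted p 0.128) or without the second dTAG-13 library (adjusted p 0.086) or the third (adjusted p 0.0549), and the lower count for all synthetases was then 3, 2 and 2. The Lars call was also lost after the correction for length and GC content (-0.052, adjusted p 0.153), and with a replicate block added (adjusted p 0.205). With the correction alone 2 cytosolic genes were lower and 4 higher, and 1 mitochondrial gene was lower.

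**Figure D5:**
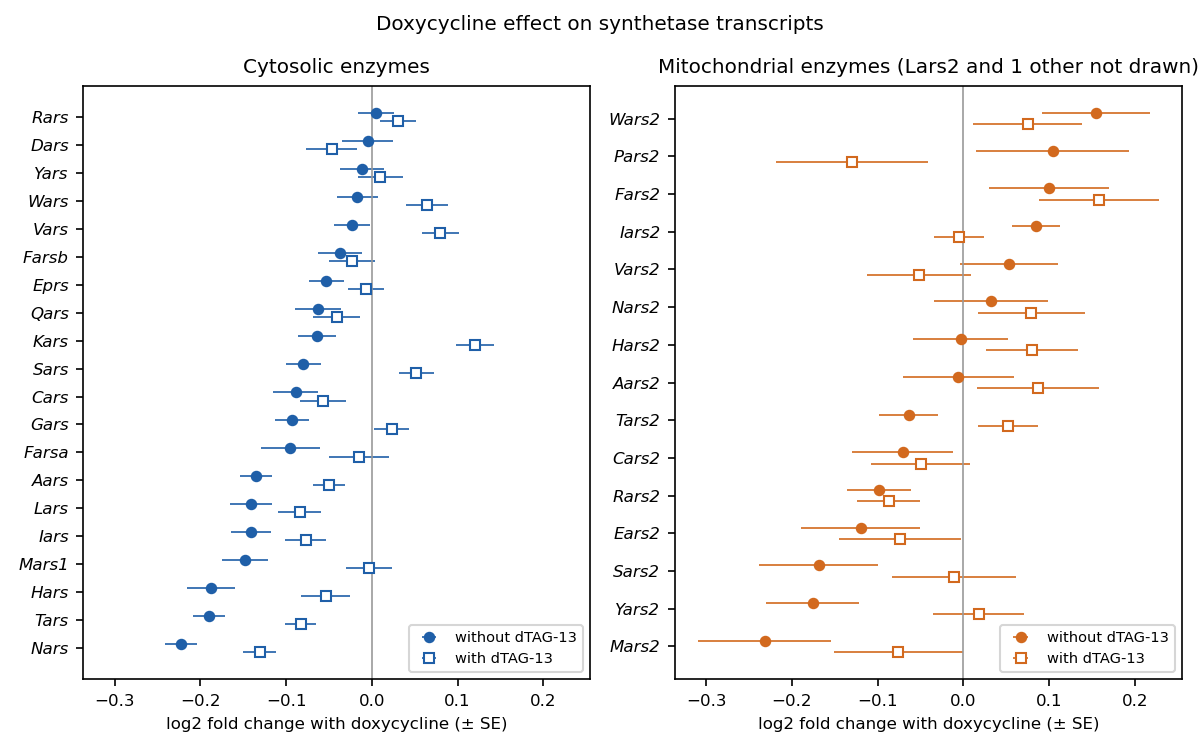
Log2 fold change with doxycycline for cytosolic (left) and mitochondrial (right) synthetases, without dTAG-13 (filled circles) and with it (open squares), with bars of ± 1 SE. Lars2 is not drawn because its SE is 0.398, and 1 other mitochondrial gene is not drawn. Without dTAG-13 most cytosolic points lie left of 0, down to -0.22 (Nars), and with dTAG-13 most of them lie further right, with Kars at 0.12.

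The interaction tested whether the dTAG-13 effect differed with and without doxycycline, as the log2 effect with doxycycline minus the effect without it. It was positive in 9 cytosolic genes and negative in 0, and 0 mitochondrial genes were called (edgeR). The mitochondrial Yars2, at 0.19, had a larger error (SE 0.0764, adjusted p 0.0619) than the called Kars at 0.18 (SE 0.031). The counts therefore do not show that the interaction was limited to cytosolic enzymes. After the correction for length and GC content 12 cytosolic genes and 1 mitochondrial gene were called positive and 0 negative. At an unadjusted p under 0.05 no cytosolic gene and 1 mitochondrial gene were negative and 2 mitochondrial genes were positive, and DESeq2 called 0 of each. Over all tested genes 13.2% were called positive and 9.64% negative, with a median of 0.0053 against 0.080 for cytosolic and 0.046 for mitochondrial synthetases. With library size only, under which the median of all genes was -0.066, 1 synthetase was called positive and 2 negative. Each of the 9 interactions kept its sign under that scaling, at lower values, from 0.015 (Aars) to 0.114 (Kars), and the median of the cytosolic genes was 0.0096.

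Kars had the largest interaction, 0.18 (SE 0.031, adjusted p 2.03e-05). It had 488.0, 492.5 and 504.1 CPM in control and 450.1, 428.2 and 439.7 CPM with dTAG-13, against 470.8, 478.5 and 470.7 CPM with doxycycline and 473.2, 483.5 and 475.6 CPM with both. The dTAG-13 groups differed without overlap in the first case and overlapped in the second. For Mars1 the interaction was 0.15 (SE 0.0382, adjusted p 0.00433), since dTAG-13 raised it by 0.18 with doxycycline (169.6, 162.3 and 171.7 to 192.3, 185.8 and 190.8 CPM) and by 0.030, not called, without. For Hars it was 0.13 (SE 0.0401, adjusted p 0.0123), with 190.6, 187.6 and 189.0 CPM with dTAG-13 and 184.9, 178.6 and 182.9 CPM with both. For Sars, the serine enzyme, it was 0.13 (SE 0.0292, adjusted p 0.000868). Sars had 690.4, 694.2 and 686.5 CPM in control, 638.2, 623.3 and 619.4 CPM with dTAG-13, 643.0, 655.7 and 661.4 CPM with doxycycline and 635.0, 665.0 and 649.5 CPM with both. Like Kars, Sars was lower in each group with a compound than in control. With library size only the interactions of Mars1 (0.075), Hars (0.063) and Sars (0.061) were not called, and that of Hars was also lost without the second control library (adjusted p 0.0718), the first (0.0561) or the second (0.0558) doxycycline library.

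Lars2 was the synthetase with the widest spread between libraries of a group. It had 290.1, 266.8 and 277.8 CPM in control, 202.8, 201.9 and 377.2 CPM with doxycycline, 315.2, 316.8 and 405.9 CPM with dTAG-13 and 337.5, 355.0 and 850.9 CPM with both. In each treated group the third library was the highest, and with both compounds it was 2.46 times the mean of the other 2. It was called in no comparison, and the largest log2 fold change was 0.99 (SE 0.395, adjusted p 0.0555) for doxycycline plus dTAG-13 against doxycycline. The call turned on the setting: DESeq2 gave an adjusted p of 0.0292, the edgeR fit corrected for length and GC content 0.041, and the fits without the first or the second library with both compounds 0.0325 and 0.0377. The log2 fold change was 0.41 (adjusted p 0.249) without the third library with both compounds and 1.35 (adjusted p 0.0236) without the third doxycycline library. Without the third library of every group Lars2 was called in all 5 comparisons, at -0.46 (adjusted p 3.41e-12) for doxycycline against control, 0.18 (adjusted p 3.28e-05) for dTAG-13 against control, 0.78 (adjusted p 3.32e-18) for both compounds against doxycycline, 0.13 (adjusted p 0.00478) for both against dTAG-13 and 0.60 (adjusted p 7.24e-11) for the interaction.

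Few abundant genes shared that spread. Of 4889 genes above 50 CPM on average, 5 were at least 1.5 times higher in the third doxycycline plus dTAG-13 library than in the other 2, and Lars2 was the only one with a symbol. Rmrp, Rn7sk and Rpph1, short structured RNAs that poly(A) selection removes, were also highest in that library, all at low levels. The mitochondrial ribosomal RNA mt-Rnr2, looked at with them, did not stand apart there. It had a mean of 2270 CPM with both compounds and at most 2300 CPM in any library. Rmrp had 1.2, 1.73 and 11.2 CPM in the 3 libraries with both compounds and 0.388, 0.467 and 2.42 CPM with doxycycline. Rn7sk had 3.48, 3.22 and 9.06 CPM with both compounds and Rpph1 2.85, 3.73 and 8.9 CPM. With dTAG-13 alone Rmrp (0.964, 0.579 and 1.96 CPM) and Rn7sk (2.54, 2.45 and 3.1 CPM) were highest in the third library. Rpph1 (3.63, 1.9 and 2.96 CPM) was highest in the first. Their part in the Lars2 values was not tested.

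Transcripts of the 3 scaffold genes of the multi-synthetase complex were also measured. With dTAG-13 alone 2 rose and Aimp2 was not called (0.006, adjusted p 0.896), where 30.0% of all tested genes rose and 32.1% fell. All 3 rose when dTAG-13 was added to doxycycline, against 30.7% of all tested genes. The difference from the cytosolic enzymes was not tested. Values and counts of these genes, and of the partner lists below, come from the fit without the correction for length and GC content. The dTAG-13 effect moved with transcript length, and how these counts would change with the correction was not tested. Eef1e1 went from 144.1 CPM in control to 176.3 CPM with dTAG-13 (log2 fold change 0.29, SE 0.029, adjusted p 1.65e-11), and Aimp1 from 133.1 to 148.8 CPM (0.16, SE 0.0303, adjusted p 1.42e-05). With doxycycline alone all 3 fell, against 18.7% of all tested genes, Eef1e1 by 0.14 on the log2 scale (SE 0.0296, adjusted p 0.00028). All 3 had a positive interaction, against 13.2% of all tested genes, led by Aimp2 at 0.26 (SE 0.0533, adjusted p 0.000267).

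The 11 partner genes of tRNA charging include enzymes that convert or proofread charged tRNA. With dTAG-13 alone 4 rose and 2 fell, where 30.0% of all tested genes rose and 32.1% fell, so the share that rose was near that of all genes. With doxycycline present 8 rose and 1 fell, against 30.7% and 33.4%. Pstk, the kinase in the selenocysteine tRNA pathway, rose from 10.8 to 14.13 CPM (log2 fold change 0.39, SE 0.0732, adjusted p 1.46e-05), and by 0.70 (SE 0.0744, adjusted p 7.27e-11) with doxycycline. Tarsl2, a second cytosolic threonine synthetase gene whose symbol the rule does not match, had 30.4 CPM in control, 28.16 CPM with doxycycline, 25.99 CPM with dTAG-13 and 22.07 CPM with both. It was called lower with doxycycline among dTAG-13 cells, at -0.23 (SE 0.0568, adjusted p 0.00213).

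Of 6 elongation factors that receive charged tRNA or recharge the one that does, 2 rose and 1 fell with dTAG-13 alone. Of all tested genes 30.0% rose and 32.1% fell, so only the share that rose was near that of all genes. Eef1b2, a cytosolic exchange factor, rose by 0.29 (SE 0.0252, adjusted p 4.9e-13), while Tufm, the mitochondrial elongation factor, fell by 0.32 on the log2 scale (SE 0.0606, adjusted p 1.76e-05). When dTAG-13 was added to doxycycline 5 rose and 1 fell, against 30.7% and 33.4% of all tested genes, and Tufm was again the lower one, at -0.31 (SE 0.0638, adjusted p 5.94e-05). Of 12 genes for processing and modifying mitochondrial tRNA, 6 rose and 3 fell with dTAG-13 alone, against 30.0% and 32.1% of all tested genes. Trnt1, which adds the terminal CCA to tRNA, rose from 73.42 to 97.14 CPM (log2 fold change 0.40, SE 0.0381, adjusted p 5.95e-12), and Elac2, which cuts the tRNA 3′ end, fell from 71.74 to 51.07 CPM (-0.49, SE 0.0501, adjusted p 3.34e-09).

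The amino-acid response genes are listed as the pathway that acts upstream of the cytosolic synthetases. Of 14 genes 8 fell and 4 rose with dTAG-13 alone, where 32.1% of all tested genes fell and 30.0% rose. When dTAG-13 was added to doxycycline 6 fell and 6 rose, against 33.4% and 30.7% of all tested genes. With doxycycline alone 7 fell and 1 rose, against 18.7% and 14.8%. Slc7a5, a transporter of large neutral amino acids, fell by 0.76 on the log2 scale with dTAG-13 (SE 0.0208, adjusted p 2.11e-29). Sesn2, a leucine sensor, fell by 0.63 with dTAG-13 (SE 0.0308, adjusted p 7.12e-21) and by 0.44 with doxycycline (SE 0.0305, adjusted p 2.85e-15). The 1 gene that rose with doxycycline alone was Cebpb, by 0.46 (SE 0.11, adjusted p 0.0124), the largest change of the list there. The 4 that rose with dTAG-13 alone changed less than Slc7a5 and Sesn2. The share of the amino-acid response genes in the synthetase changes was not tested.

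Some synthetase values rest on reads that could belong to a neighbour or a copy. Besides Iars2, exons overlap those of another gene over 14.3% of their length in Aars (Exosc6, same strand), 9.5% in Farsb, 8.7% in Fars2, 8.5% in Vars2 and 8.0% in Hars, whose partner on the opposite strand is Hars2. Iars is 96.014% identical to the pseudogene Gm4849 over 1656 bases. How reads that fit more than 1 place were handled is not given in the sources used here.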

How the data were processed

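RNA-seq of 12 MC38-idAdpgkG libraries was used. The authors deposited unnormalized counts per Entrez gene ID. Subread was the aligner, per the file headers, and per the submitters' processing notes bcl2fastq 2.17, featureCounts and mm10 were used. The sources used here do not give the strand setting. Per the labels' protocols, RNA was isolated with RNeasy Plus and libraries were made from oligo(dT)-enriched RNA with NEBNext Ultra II. Symbols came from RefSeq GRCm38.p6. Transcript length is that of the RefSeq-linked GENCODE M21 transcript with the most exonic bases inside the RefSeq gene, counting those bases only.

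All tests used the quasi-likelihood F test (two-sided, robust) of edgeR 4.0.16 in R 4.3.3, on the counts of all 12 libraries, with filterByExpr by group, trimmed mean of M values (TMM) scaling, 1 mean per group and Benjamini-Hochberg adjustment over 12910 genes. Genes were called at an adjusted p under 0.05. The 5 comparisons set each single compound against control, both compounds against each single one, and tested the interaction. The code was tested on simulated data. Alternatives were RLE size factors, library size only, no filter, a replicate block, DESeq2 1.42.0, only the groups compared, each library left out, and a correction of the offsets for length and GC content (splines with 5 degrees of freedom); leaving out the third library of every group was chosen after seeing the data. BLAST 2.17.0 found similar transcripts (95% identity over 100 bases).

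Full statistics are given for the 4 called cytosolic and 4 called mitochondrial genes with the largest absolute log2 fold change in each comparison and for at most 2 called genes of each partner list. Statistics of Dars, Rars, Mars1 and Lars2, and levels of Tarsl2, Rmrp, Rn7sk, Rpph1 and mt-Rnr2, were added after values were seen. So were the interaction of Yars2, the SE of Pars2 and the corrected values of Cars and Sars. The members and lists were chosen with earlier results of these data known. The lowest count for a synthetase in a library was 239, for Pars2. Genes with few counts had larger errors. For dTAG-13 against control the SE was 0.0878 for Pars2 and 0.0187 for Nars. A small change was therefore harder to call in the scarcer genes, which are mostly mitochondrial. Values of 1 mitochondrial synthetase and 1 marker, both part of the counts, are not reported here.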

Additional observations from a re-analysis of the deposited data

Results flagged for a closer look

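For 9 cytosolic synthetases the effect of dTAG-13 differed with and without doxycycline by the interaction test (edgeR quasi-likelihood, Benjamini-Hochberg adjusted p under 0.05). The interaction, the log2 effect with doxycycline minus the effect without, was 0.184 for Kars, 0.146 for Mars1, 0.134 for Hars, 0.131 for Sars, 0.116 for Gars, 0.107 for Tars, 0.103 for Vars, 0.091 for Nars and 0.085 for Aars. All 9 were positive, as was the interaction in 83.8% of the 37 synthetases and in 51.2% of all tested genes. Between 6 and 11 synthetases were called without single libraries, with 6 without the second control library. With library size only, Kars alone was still called positive.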

How the results depend on the processing

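Of 86 called gene results, 49 were called in the same direction under every alternative, and 6 turned sign in at least 1. Of 99 not called, 37 were called in at least 1. The replicate number was checked as a pairing. Over 18 same-numbered pairs of libraries the deviations from the group means correlated across genes at -0.021 to 0.08. A correlation over all genes does not show what a few genes share, and Lars2 was highest in the third library of each treated group. A batch behind the number was not tested. The fit with a replicate block called 8 synthetases higher and 21 lower for dTAG-13, 1 and 15 for doxycycline, 10 and 16 for dTAG-13 with doxycycline, 2 and 4 for doxycycline with dTAG-13, and 9 positive interactions, and called Lars2 higher for dTAG-13 with doxycycline (0.94, adjusted p 0.0212). Library size only gave 2 higher and 10 lower for doxycycline, 14 higher for dTAG-13, 1 higher and 10 lower for doxycycline with dTAG-13, and 1 positive and 2 negative interactions. The length and GC correction, alone and with the replicate block, gave 5 higher for dTAG-13 and 4 higher for doxycycline with dTAG-13, where RLE and no filter also gave 4. For doxycycline, DESeq2 called 0 higher and the fit of only the groups compared called 2. Without single libraries the ranges were 0 to 2 higher and 10 to 16 lower for doxycycline, 5 to 8 higher for dTAG-13, 2 to 4 higher and 2 to 4 lower for doxycycline with dTAG-13, and 0 to 1 negative interactions. The highest value of 4 came without the third control library and the 1 negative interaction without the first dTAG-13 library.

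Sign turned for Iars2 with dTAG-13 under library size only (0.006). It turned under the length and GC correction for Rars (-0.159, and -0.134 with doxycycline), Mars2 (-0.099), Rars2 (-0.014, and -0.018 with doxycycline), Vars2 (0.080, and 0.010 with doxycycline), Sars (0.119 with doxycycline) and Kars (-0.050 with doxycycline). With the replicate block as well these were the same for Rars and Sars, and -0.100 for Mars2, -0.014 and -0.019 for Rars2 and 0.082 and 0.012 for Vars2. The cause was not tested. Technical replicates of 1 culture per group limit every result.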
